A study of Mus musculus with 2 samples.

Results

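A set of 10 protease inhibitor genes was followed across the cell types of mouse gastrocnemius muscle and mouse lung. They were the cystatins Cst3, Cstb and Cst7, the stefins Stfa1, Stfa2, Stfa3 and Stfa2l1, and the serpins Serpinb1a, Serpinb6a and Serpina3g. The genes were chosen by name from these families, with earlier results of these data known. All 10 were among the 55416 genes listed in both deposited matrices. Single cells of the 2 tissues were profiled with 10x Genomics 5′ chemistry on a NovaSeq, with 1 library per tissue. The muscle library was labelled as gastrocnemius of TB mice and the lung library as lung of TB mice, and both carried the label CAC mouse model. Cells of both tissues were released with Liberase TL and DNase, cleared of red cells and enriched for CD45 with magnetic beads. The series concerns Cathepsin L in cachexia, the wasting of muscle that accompanies cancer, and in resistance to anti-PD-L1, but the labels give no treatment, genotype, age or number of animals for either library. With 1 library per tissue no replicate error could be had, so no test between muscle and lung was made. Levels are counts per 1000000 UMIs (CPM) of the summed cells of a class, with exact Poisson 95% intervals. Ratios carry exact binomial 95% intervals. All intervals cover counting error only, and UMIs of 1 cell are not independent of each other.

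Cystatins and stefins are reversible inhibitors that fill the active-site cleft of papain-like cysteine proteases, the cathepsins of lysosomes, and some cystatins also block legumain. Cst3 (cystatin C) is secreted, Cst7 (cystatin F) is made by leukocytes and delivered to their lysosomes and granules, and Cstb and the stefins A remain in the cytosol; the mouse carries an expanded cluster of stefin A genes. Serpins act once and irreversibly, by trapping the protease in a covalent complex. In neutrophils, Serpinb1a is known as an inhibitor of elastase, proteinase 3 and cathepsin G.

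The muscle library held 5547 barcodes and 14056163 UMIs, and the lung library 8481 barcodes and 34751225 UMIs. After barcodes with fewer than 200 genes or more than 10% mitochondrial UMIs were left out, 2243 cells were kept in muscle, at a median depth of 3106 UMIs, and 8194 in lung, at a median of 2286. The mitochondrial limit removed 59.5% of muscle barcodes and 3.22% of lung barcodes. Sets of marker genes placed 2078 muscle cells and 6748 lung cells in a class. Of the muscle cells, 1268 were endothelial-like and 249 fibroblast-like, and the defining gene of the CD45 label, Ptprc, was at 6.35 and 2.21 CPM in them, so much of the muscle library did not carry the labelled marker. Neutrophil-like cells numbered 70 in muscle and 2846 in lung, and Ptprc was at 776 CPM in muscle neutrophils and 620 CPM in lung neutrophils. Their defining genes S100a8 and S100a9, which were not used to place them, reached 35574 and 42058 CPM in muscle neutrophils and 11293 and 14060 CPM in lung neutrophils, against 405 and 427 CPM in lung B cells. The libraries shared 64 barcodes, 24 of them among the kept cells. Doublets were not called in the main analysis, but cells that scored for several classes were left out (83 in muscle, 549 in lung).

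The 4 stefins were almost entirely neutrophil genes. In muscle, every UMI of these 4 genes in a classed cell lay in a neutrophil: 17 of Stfa1, 6 of Stfa2, 18 of Stfa3 and 119 of Stfa2l1. In lung, neutrophils held 95.9% of the Stfa1 counts of classed cells, 99.0% of Stfa2, 96.6% of Stfa3 and 94.3% of Stfa2l1. Stfa2l1 was at 341 CPM (282 to 408) in muscle neutrophils and 238 CPM (228 to 248) in lung neutrophils. The next classes in lung were T cells at 13.2 CPM, endothelial cells at 9.96 CPM and B cells at 8.76 CPM, whose intervals overlapped. At least 1 Stfa2l1 UMI was found in 38.6% of muscle neutrophils and 20.2% of lung neutrophils. In lung B cells, which should lack the gene, the share was 1.67%, at a median depth of 2130 UMIs against 2222 in lung neutrophils (3328 in muscle neutrophils). After thinning every cell to 1000 UMIs, with 1 muscle neutrophil, 286 lung neutrophils and the shallower B cells left out, the shares were 21.7% in muscle neutrophils, 13.8% in lung neutrophils and 0.806% in lung B cells.

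**Figure D1:**
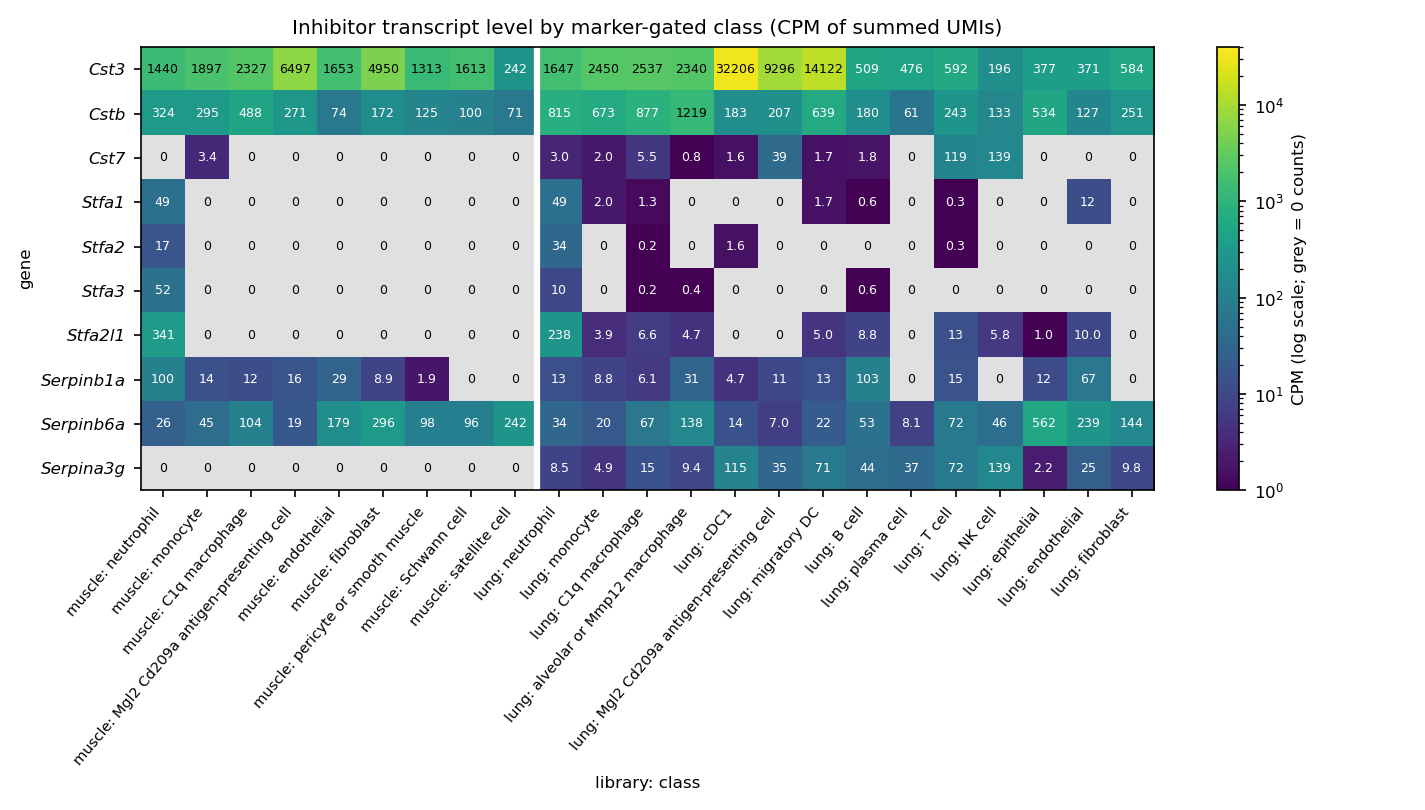
Levels of the 10 inhibitor genes (rows) in each class of at least 20 cells (columns), muscle classes left of lung classes, coloured by CPM on a log scale with the CPM printed in each cell, grey for 0 counts; no error is drawn. The stefin rows are filled in the neutrophil columns and near empty elsewhere, and Cst3 is filled in every column. Serpina3g is empty in all muscle columns.

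The stefin A genes lie side by side and resemble each other within their transcripts, and some of them also before their starts. The 100 bases before the annotated transcription start of the 4 stefins and of Cstdc4, a neighbouring stefin-like gene that was also read in neutrophils, are shown first. They come from RefSeq on GRCm38.p6, at chr16:36277048-36277147 (plus strand), chr16:36408364-36408463 (minus), chr16:36455393-36455492 (minus), chr16:36156711-36156810 (plus) and chr16:36184112-36184211 (plus). Capitals mark the block ACCTTTAAAACCC, the longest stretch that the 4 stefins share within these 100 bases.
Stfa1: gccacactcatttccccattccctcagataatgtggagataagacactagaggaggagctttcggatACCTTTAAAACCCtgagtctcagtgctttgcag
Stfa2: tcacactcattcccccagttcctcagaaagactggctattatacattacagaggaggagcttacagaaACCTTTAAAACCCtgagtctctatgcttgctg
Stfa3: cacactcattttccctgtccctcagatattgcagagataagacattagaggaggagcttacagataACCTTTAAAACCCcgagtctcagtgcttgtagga
Stfa2l1: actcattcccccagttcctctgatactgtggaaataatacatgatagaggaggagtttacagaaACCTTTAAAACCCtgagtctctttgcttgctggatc
Cstdc4: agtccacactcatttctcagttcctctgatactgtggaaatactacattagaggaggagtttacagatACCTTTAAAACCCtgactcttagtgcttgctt
The block began 33, 32, 34, 36 and 32 bases before the start in these genes. It was searched on the plus and the minus strand in the 250 bases before every annotated start, and 8 of 32851 promoters (0.0244%) held it. All 8 were genes of the stefin cluster (Csta3, Cstdc3, Cstdc4, Gm7260, Stfa1, Stfa2, Stfa2l1 and Stfa3). The 4 stefins held it by the way it was chosen. Cstdc5, also read in neutrophils, was not among the 8: the 100 bases before its annotated start end in acctttaaaacc. Nor was Csta2, another gene of the cluster read in neutrophils. The 100 bases before the start of Csta2 were 37.5% to 48.1% identical to those of the other genes compared. The core of the block, TTTAAA, was found in 12.1% of promoters. Levels differed widely among genes that hold the block: neutrophil counts of Cstdc3 were 0 in muscle and 0 in lung, and those of Csta3 were 0 in muscle and 35 in lung.

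The closest pair of the members was Stfa2 and Stfa2l1. Their coding sequences, from GENCODE M21 on GRCm38, lie at chr16:36404030-36408333 (minus strand) and chr16:36156837-36161869 (plus strand). Their first 300 coding bases are shown because they bear on how far reads of these genes can be told apart. Capitals mark the bases that differ.
Stfa2: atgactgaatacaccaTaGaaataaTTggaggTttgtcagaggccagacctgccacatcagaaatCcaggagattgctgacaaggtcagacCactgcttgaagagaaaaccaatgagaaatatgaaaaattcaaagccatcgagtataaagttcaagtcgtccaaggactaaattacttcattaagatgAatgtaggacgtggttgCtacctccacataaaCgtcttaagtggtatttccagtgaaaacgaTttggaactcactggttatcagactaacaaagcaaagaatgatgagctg
Stfa2l1: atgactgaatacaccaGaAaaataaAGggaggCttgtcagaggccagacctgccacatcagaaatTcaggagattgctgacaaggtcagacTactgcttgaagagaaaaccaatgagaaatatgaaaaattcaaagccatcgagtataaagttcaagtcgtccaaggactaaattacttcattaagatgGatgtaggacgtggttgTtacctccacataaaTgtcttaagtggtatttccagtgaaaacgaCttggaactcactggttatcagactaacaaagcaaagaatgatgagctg
Both coding sequences run for 309 bases, of which 298 are identical (96.4%) and 11 differ. Stfa3 and Stfa2l1 were 81.6% identical. Transcripts of Stfa1, Stfa2, Stfa3, Stfa2l1, Cstdc4, Cstdc5, Csta2, Csta3 and Cstb were compared in 50-base windows. Of these windows, 14.7% in Stfa2, 16.8% in Stfa2l1 and 19.1% in Stfa1 also occurred in another of the transcripts compared. None of those in Stfa3 did, and other genes of the cluster were not compared. The shares in Cstdc4, Cstdc5 and Csta2 were 26.3%, 15.6% and 39.2%, and the coding sequences of Cstdc4 and Csta2 were 96.9% identical. How reads with more than 1 possible origin were counted is not given in the sources used here. Splits of counts between genes that share windows, Stfa2 and Stfa2l1 among them, are thus uncertain. Serpina3g, Serpinb1a and Serpinb6a also belong to families of related mouse genes, whose sequences were not compared here.

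Among the UMIs of the 4 stefins in neutrophils, Stfa2l1 made up 74.4% in muscle (66.9 to 80.9%) and 71.9% in lung (70.2 to 73.6%). Stfa1, Stfa2 and Stfa3 accounted for 10.6%, 3.75% and 11.2% in muscle and 14.8%, 10.3% and 3.04% in lung. These are shares of UMIs, which count the 5′ ends of molecules, with no correction for length. They leave out neighbouring stefin-like genes. Cstdc4 alone had 187 UMIs in muscle and 7141 in lung neutrophils, against 160 and 2832 of the 4 stefins together. The stefins differed in how they were spread over cells. In lung, 418 Stfa1 UMIs came from 50 neutrophils, and 1 cell held 161 of them (38.5%). Stfa2 had 291 UMIs in 53 cells, with 60 in the fullest, and Stfa3 had 86 UMIs in 15 cells, with 31 in the fullest. By contrast the 2037 Stfa2l1 UMIs lay in 575 cells and the fullest held 54. Stfa1, Stfa2 and Stfa3 were thus read in few, very full cells, and Stfa2l1 in many.

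**Figure D2:**
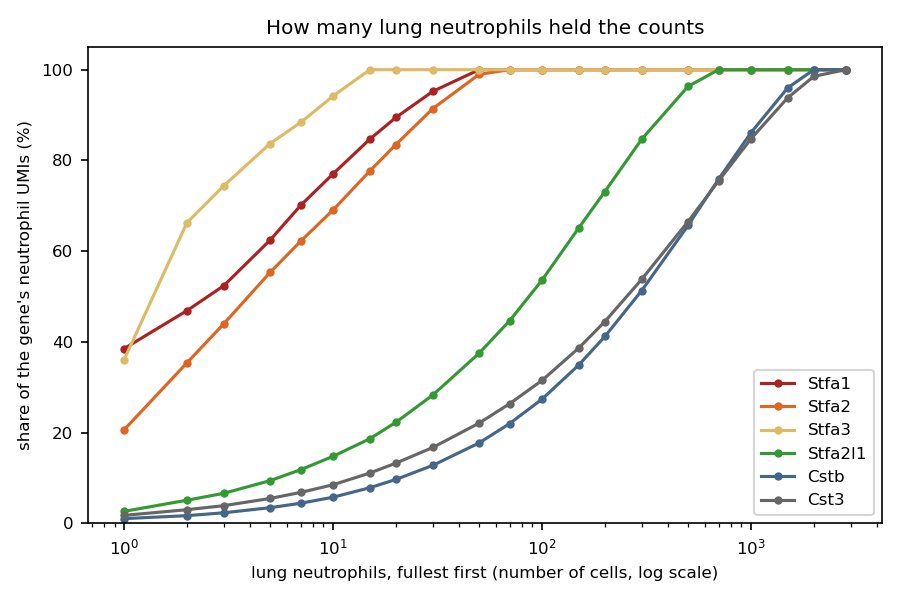
Cumulative share of a gene's UMIs (vertical axis, percent) against the number of lung neutrophils, ordered from the fullest down (horizontal axis, log scale), 1 line per gene. The 3 fullest cells held 52.4% of Stfa1, while the Stfa2l1 and Cstb lines climb over far more cells.

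In muscle, on small numbers, 14 of the 18 Stfa3 UMIs came from 1 of 70 neutrophils. In lung, cells with 1 of the rarer stefins more often had Stfa2l1 as well: 30 of 50 lung neutrophils with Stfa1 (60.0%), 40 of 53 with Stfa2 (75.5%) and 12 of 15 with Stfa3 (80.0%), against 20.2% of all lung neutrophils. Within Retnlg-high lung neutrophils, where 40.8% of all cells had Stfa2l1, the shares were 69.0% of 29 cells, 75.7% of 37 and 90.9% of 11. In muscle 1 of 4 cells with Stfa1 (25%), 3 of 3 with Stfa2 and 3 of 3 with Stfa3 had it, against 38.6% of all muscle neutrophils. The part of depth and of reads shared between the genes in these shares was not tested.

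Neutrophils were divided by 4 genes that are no inhibitors: Siglecf (at least 1 UMI), Retnlg (at least 500 CPM), Ccl3 (at least 1000 CPM) and Cxcl2 (at least 3000 CPM). In lung this gave 606 Siglecf-positive, 789 Ccl3-high, 661 Cxcl2-high Ccl3-low, 349 low for all 4 and 441 Retnlg-high neutrophils. These are ranges of a level and not cell types: 386 lung neutrophils had exactly 1 Siglecf UMI, and 157, 320 and 289 lay within 1.5-fold of the Retnlg, Ccl3 and Cxcl2 limits. The CPM limits depend on depth: in shallow cells 1 UMI of Retnlg or Ccl3 was enough to pass. In muscle, 36 of 70 were Retnlg-high and 20 low for all 4, and the other subsets held 1, 6 and 7 cells and were not compared. Median depth in lung was 2912 UMIs in Siglecf-positive cells, 2026 to 2058 in the other 3 subsets and 2111 in Retnlg-high cells.

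All 4 stefins were lower in each of the other lung subsets than in Retnlg-high neutrophils. Stfa1 was at 0.817 CPM in Siglecf-positive cells (2 counts), 9.48 in Ccl3-high, 5.47 in Cxcl2-high Ccl3-low and 1.82 in cells low for all 4 (2 counts), against 324 CPM in Retnlg-high cells (385 counts). Stfa2 was at 11.03, 8.48, 1.64 and 6.36 CPM in the same 4 subsets, against 199 CPM in Retnlg-high cells. No interval of a subset reached that of the Retnlg-high cells for either gene. Stfa3 had 0, 3, 3 and 0 counts in the 4 subsets against 80 counts (67.3 CPM) in Retnlg-high cells. Against a floor of 3 counts per subset, it was at least 54.9-fold lower in Siglecf-positive cells and at least 24.7-fold lower in cells low for all 4. The exact intervals of these log2 ratios reached up to −5.45 and −4.29. Stfa2l1 differed least: it was at 153, 197, 140 and 98.2 CPM, against 761 CPM in Retnlg-high cells. The log2 ratios of Stfa2l1 were −2.32 (−2.50 to −2.14), −1.95 (−2.13 to −1.78), −2.44 (−2.65 to −2.24) and −2.96 (−3.26 to −2.67). Its share of the UMIs of the 4 stefins was 92.8%, 91.0%, 94.1% and 92.3% in the 4 subsets and 56.3% in Retnlg-high cells.

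Shares of cells with a UMI were likewise highest among Retnlg-high neutrophils. Stfa2l1 was found in 18.5%, 18.1%, 16.0% and 9.74% of cells of the 4 subsets, against 40.8% of Retnlg-high cells. Thinned to 1000 UMIs, the shares were 8.75%, 13.6%, 9.83% and 7.27%, against 31.8%. All were above the 0.806% of thinned lung B cells. Without the fullest cell, Retnlg-high neutrophils still had 190 CPM of Stfa1, 150 of Stfa2, 41.5 of Stfa3 and 720 of Stfa2l1. Genes of early neutrophil granules differed in the same direction: Ngp, Ltf, Camp, Lcn2 and Mmp8, all 5 detected in every subset, summed to 571, 435, 418 and 2444 CPM in the 4 subsets and 5113 CPM in Retnlg-high cells. Their part in the stefin levels was not tested.

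**Figure D3:**
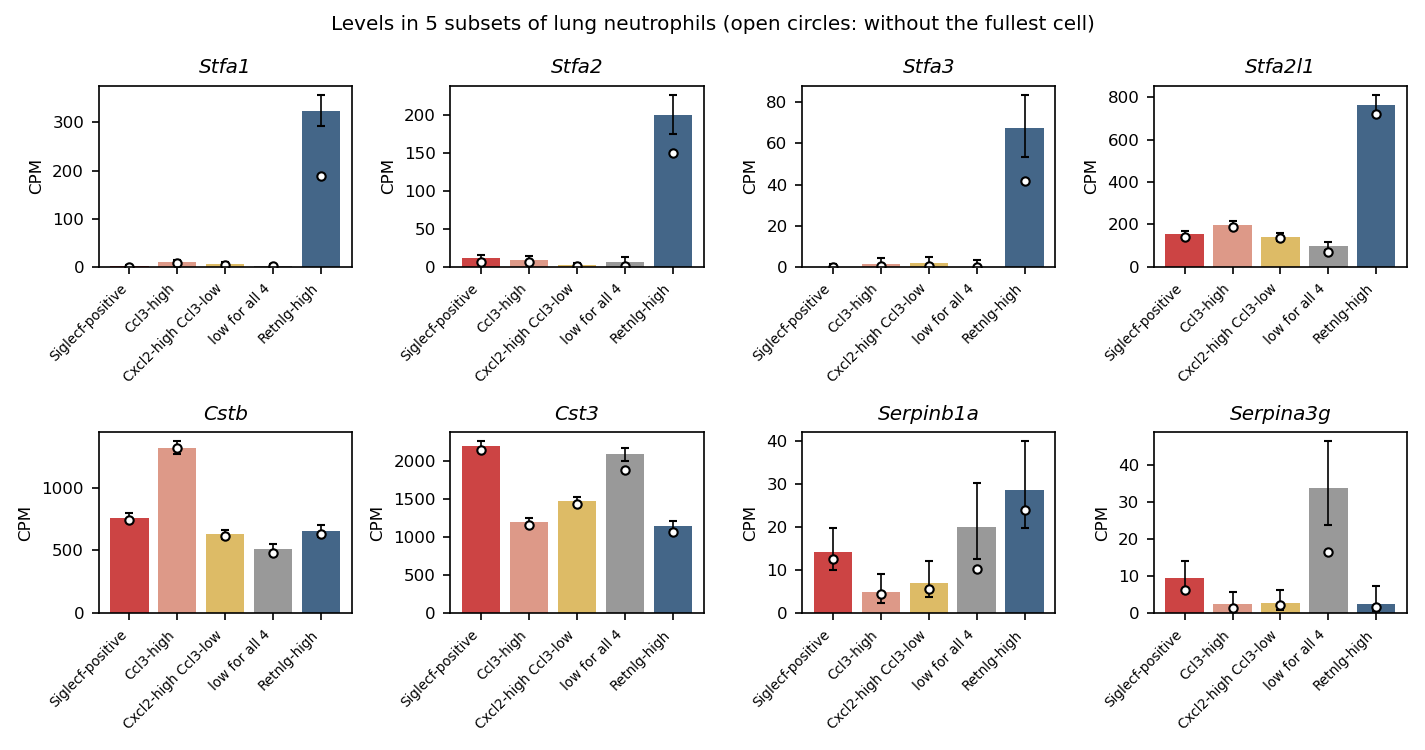
Levels (CPM, linear scale from 0, 1 panel per gene) of 8 inhibitor genes in the 5 lung neutrophil subsets, with Retnlg-high last; error bars are exact Poisson 95% intervals of the summed cells, and open circles give the level without the fullest cell. The 4 stefins stand highest in Retnlg-high cells, and Cstb in Ccl3-high cells.

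Counted by a fixed size, a gene was taken as higher or lower in a subset where it differed at least 2-fold over at least 10 counts. Lower than in Retnlg-high cells were 5 of 10 members tested in Siglecf-positive cells (3.40% of all genes tested), 5 of 8 in Ccl3-high cells (4.37%), 5 of 8 in Cxcl2-high Ccl3-low cells (2.82%) and 4 of 9 in cells low for all 4 (3.94%). The 4 stefins were in each of these counts, and Serpinb1a, a borderline case in Siglecf-positive cells (14.3 CPM, against 28.6 CPM in Retnlg-high cells), was the fifth in the first 3. Higher were 2 members in Siglecf-positive cells (33.8% of all genes), 1 in Ccl3-high cells (19.2%), 0 in Cxcl2-high Ccl3-low cells (21.5%) and 1 in cells low for all 4 (38.2%). These were Cst7 and Serpina3g in Siglecf-positive cells, Cstb in Ccl3-high cells and Serpina3g in cells low for all 4. The median log2 ratio of all genes tested was 0.69, 0.38, 0.45 and 0.73, and that of the members tested −0.39, −2.24, −2.22 and −0.52, so most genes were a little higher than in Retnlg-high cells. Siglecf, Ccl3, Cxcl2 and Retnlg defined the subsets, and these comparisons share the Retnlg-high cells. The members were chosen with earlier results of these data known, and the 4 stefins are related genes. These counts are therefore no test of the set.

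Cstb, the cytosolic inhibitor of cathepsins B, H, L and S, followed another order. It was at 760 CPM in Siglecf-positive, 1319 in Ccl3-high, 628 in Cxcl2-high Ccl3-low and 508 in cells low for all 4, against 652 CPM in Retnlg-high neutrophils. In Ccl3-high cells the log2 ratio was 1.02 (0.90 to 1.13), and the other 3 subsets stayed under 2-fold either way. The median of all genes in that comparison was 0.38. Median-ratio scaling brought it under 2-fold. Serpinb1a was at 14.3, 4.99, 7.11 and 20 CPM in the 4 subsets and 28.6 CPM in Retnlg-high cells. Its log2 ratio was −2.52 (−3.70 to −1.47) in Ccl3-high cells and −0.52 (−1.36 to 0.30) in cells low for all 4. Serpinb6a ran from 27.4 to 48.2 CPM in the 4 subsets against 26.1 CPM in Retnlg-high cells, and no ratio reached 2-fold. Serpina3g had 37 counts in cells low for all 4 and 3 in Retnlg-high cells, a log2 ratio of 3.74 (2.08 to 6.08), but 19 of the 37 came from 1 cell. In Siglecf-positive cells it had 23 counts against the same 3 (log2 1.90, 0.17 to 4.28). Cst7 had 9 counts in Siglecf-positive and 2 in Retnlg-high cells (log2 1.13, −1.15 to 4.38), which does not separate them.

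Outside the neutrophils, Cstb was a gene of phagocytes and epithelium. Among muscle classes of at least 20 cells it was highest in C1q macrophages, at 488 CPM (439 to 541). Neutrophils at 324, monocytes at 295 and Mgl2 Cd209a antigen-presenting cells at 271 CPM followed and overlapped. The 9 muscle alveolar or Mmp12 macrophages held 37 Cstb counts among 61273 UMIs, against 362 among 742020 in C1q macrophages. Muscle endothelial cells had 73.9 CPM. In lung, alveolar or Mmp12 macrophages led at 1219 CPM (1176 to 1262), before C1q macrophages at 877 and neutrophils at 815 CPM. Monocytes and migratory dendritic cells followed at 673 and 639 CPM and overlapped, and epithelial cells were at 534 CPM. Lung B cells had 180 CPM.

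Cst3, the secreted cystatin C, was read in every class. Lung cDC1 cells, the cross-presenting dendritic cells, had 32206 CPM and all 69 cells had a UMI. Migratory dendritic cells followed at 14122 CPM and lung Mgl2 Cd209a antigen-presenting cells at 9296 CPM. Among muscle classes of at least 20 cells, Mgl2 Cd209a antigen-presenting cells led at 6497 CPM. Fibroblasts at 4950, C1q macrophages at 2327 and monocytes at 1897 CPM followed, with no overlap between neighbours. The 13 muscle cDC1 cells, too few for this order, held 3460 Cst3 counts among 134592 UMIs. The Mgl2 Cd209a cells held 2800 among 430986 UMIs. Muscle endothelial cells (1653), Schwann cells (1613), neutrophils (1440) and pericytes or smooth muscle (1313) formed a run of overlapping neighbours. Satellite cells were at 242 CPM. Lung lymphocytes were low, with 592 CPM in T, 509 in B and 196 in NK cells. In lung B cells 49.1% of cells had a Cst3 UMI, so shares of cells say little about this gene.

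Cst7, cystatin F, which is known to inhibit cathepsin C in lysosomes of cytotoxic cells, was highest in lung NK and T cells. NK cells had 139 CPM (88.8 to 206) and T cells 119 CPM (107 to 133). Lung Mgl2 Cd209a antigen-presenting cells had 38.6 CPM on 11 counts. B cells had 1.75 CPM, and the other lung classes were between 0 and 5.47 CPM. A Cst7 UMI was found in 31.0% of NK cells and 19.9% of T cells, against 0.456% of B cells. After thinning the shares were 12.3% in NK, 8.69% in T and 0% in B cells, whose median depths before thinning were 2670, 2966 and 2130 UMIs. In muscle, where T cells numbered 9, the whole kept library held 4 counts, 3 of them in these T cells (67645 UMIs).

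Serpina3g, which in mouse is known as a lymphocyte inhibitor of lysosomal cysteine cathepsins that leak into the cytosol, was highest in the same lung NK cells, at 139 CPM (88.8 to 206), and in cDC1, at 115 CPM (90.5 to 145). T cells (72.0), migratory dendritic cells (71.4), B cells (44.4), plasma cells (36.7) and Mgl2 Cd209a antigen-presenting cells (35.1 CPM) formed a run of overlapping neighbours. Lung neutrophils had 8.52 CPM. In muscle 3 counts were found in all, 2 of them in the 9 T cells. All 9 classes of at least 20 cells were at 0. There a floor of 3 counts allows up to 0.706 CPM in endothelial cells and 8.59 CPM in neutrophils.

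Serpinb6a, known as an inhibitor of cathepsin G and other serine proteases, was highest in structural cells. In muscle, fibroblasts had 296 CPM (268 to 326) and satellite cells 242 CPM (155 to 360), which overlapped both fibroblasts and endothelial cells at 179 CPM. C1q macrophages (104), pericytes or smooth muscle (97.8) and Schwann cells (95.6 CPM) followed and overlapped. Muscle neutrophils had 25.8 CPM. In lung, epithelial cells had 562 CPM (539 to 586) and endothelial cells 239 CPM, before fibroblasts at 144 and alveolar or Mmp12 macrophages at 138 CPM, which overlapped. Lung neutrophils had 33.7 CPM. Among muscle classes of at least 20 cells Serpinb1a was highest in neutrophils, at 100 CPM (69.8 to 139). The next class, endothelial cells, had 29.4 CPM. In lung it was highest in B cells at 103 CPM (88.1 to 119) and endothelial cells at 67.2 CPM, which overlapped, and neutrophils had 13.3 CPM. A Serpinb1a UMI was found in 20.2% of lung B cells and 2.35% of lung neutrophils.

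Muscle was next set against lung within each class that held at least 20 cells in both. A class may hold different cells in the 2 libraries, and fewer cells of a kind cannot be told apart from less RNA per cell. In neutrophils, Serpinb1a was at 100 CPM in muscle (35 counts in 9 of 70 cells), against 13.3 CPM in lung (114 counts in 67 of 2846 cells), a log2 ratio of 2.91 (2.32 to 3.47). Without the fullest cell of each group it was 2.62. Cstb was at 324 CPM in muscle, against 815 CPM in lung, a log2 ratio of −1.33 (−1.61 to −1.07). Stfa3 was at 51.5 CPM in muscle, against 10.0 CPM in lung, a log2 ratio of 2.36, which was 0.86 without the fullest cells. Stfa1 (48.7 CPM in muscle, against 48.8 CPM in lung) had an interval from −0.80 to 0.69. Stfa2l1 had a log2 ratio of 0.52 (0.24 to 0.79), Cst3 −0.19, Serpinb6a −0.39 and Stfa2 −0.98, the last with an interval that reached 0.16. Cst7 and Serpina3g had 0 counts in muscle neutrophils, too shallow for a direction. In all 2 of 10 members were at least 2-fold higher (10.0% of all genes tested) and 1 lower (15.2%).

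The neutrophils of the 2 libraries differed in make-up. Early granule genes summed to 14038 CPM in muscle neutrophils and 1377 CPM in lung neutrophils, all 5 being detected in both. Markers of other myeloid cells were also higher in muscle neutrophils: the 6 C1q macrophage markers summed to 1082 CPM in muscle neutrophils (Pf4 at 0), against 571 CPM in lung neutrophils. The 5 monocyte markers summed to 627 CPM in muscle neutrophils (Ms4a4c at 0), against 212 CPM in lung neutrophils. Lyz2 was at 5577 CPM in muscle neutrophils, against 1892 CPM in lung neutrophils, and the C1q sum was 2252 CPM in the 20 muscle cells low for all 4. The 7 alveolar or Mmp12 macrophage markers summed to 381 CPM in muscle neutrophils (Krt79, Plet1 and Atp6v0d2 at 0), against 547 CPM in lung neutrophils. This list includes Fabp4, and its sum was 10248 CPM in muscle endothelial cells, so it is not specific to macrophages. Retnlg-high cells were 51.4% of muscle and 15.5% of lung neutrophils. Among Retnlg-high cells alone (36 in muscle, 441 in lung) the C1q macrophage sum was 374 CPM in muscle (Ms4a7 and Pf4 at 0), against 299.5 CPM in lung, the monocyte sum was 435 CPM in muscle (Vcan and Ms4a4c at 0), against 139.7 CPM in lung, and the early granule sum was 19601 CPM in muscle, against 5113 CPM in lung. There Stfa1 was at 60.4 CPM in muscle, against 324 CPM in lung (log2 −2.42, −3.50 to −1.53), and Stfa2 at 36.2 CPM in muscle, against 199 CPM in lung (log2 −2.46, −3.92 to −1.32). These rest on 10 and 6 muscle counts. Stfa2l1 hardly differed, at 664 CPM in muscle, against 761 CPM in lung (log2 −0.20, −0.50 to 0.09). Stfa3 was at 109 CPM in muscle, against 67.3 CPM in lung, a log2 ratio of 0.69 that was −0.72 without the fullest cells. Cstb was at 211 CPM in muscle, against 652 CPM in lung (log2 −1.63, −2.16 to −1.14). Serpinb1a kept its difference, at 151 CPM in muscle, against 28.6 CPM in lung (log2 2.40, 1.59 to 3.19). Of 8 members tested, 1 was at least 2-fold higher (10.5% of all genes) and 4 lower (15.8%), the fourth being Serpinb6a on 2 muscle counts. The part of the granule genes, of the macrophage and monocyte markers and of the subset shares in these differences was not tested.

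**Figure D4:**
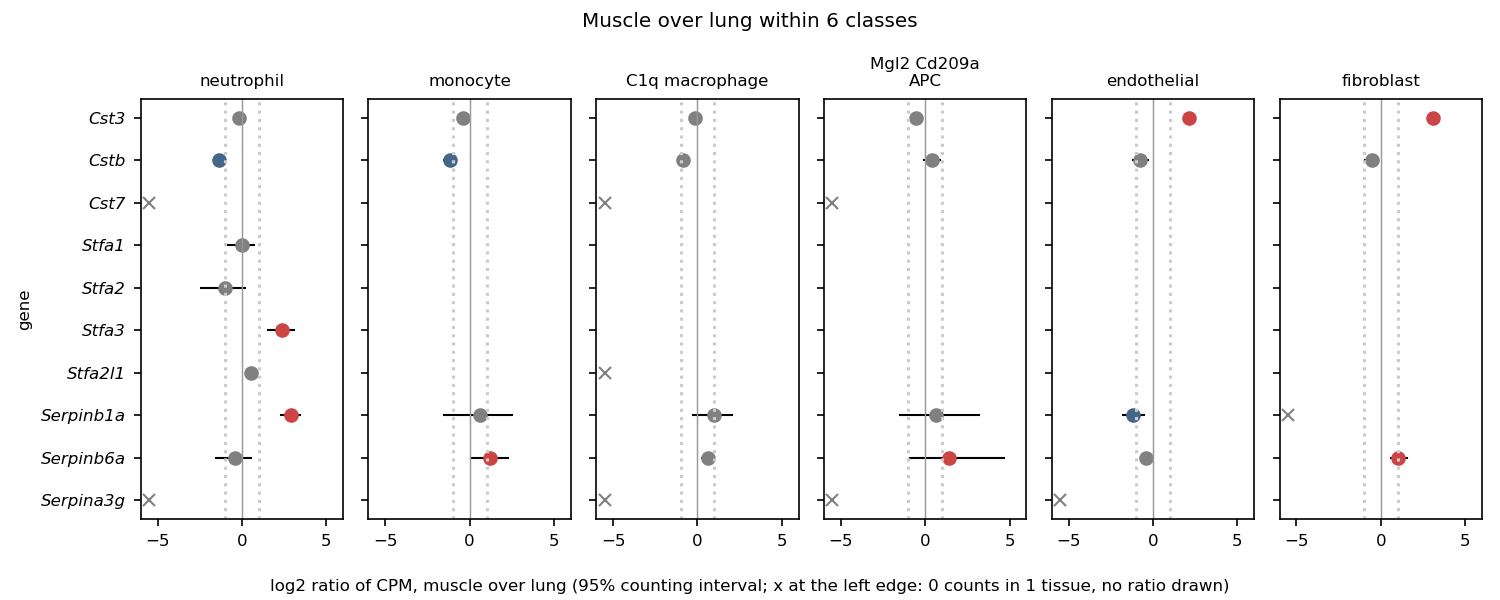
Log2 ratio of muscle over lung for each inhibitor gene with at least 10 counts, in each class with at least 20 cells in both libraries (APC, antigen-presenting cell); bars are exact 95% intervals, dotted lines mark 2-fold, red and blue points lie at least 2-fold higher and lower in muscle, and an x at the left edge marks a gene with 0 counts in 1 tissue, for which no ratio is drawn. Cst3 lies above 2 in endothelial cells and fibroblasts, and Serpinb1a above 2 in neutrophils.

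Cst3 separated the structural cells of the 2 tissues. Fibroblasts had 4950 CPM in muscle, against 584 CPM in lung (27 cells), a log2 ratio of 3.08 (2.87 to 3.31), and endothelial cells 1653 CPM in muscle, against 371 CPM in lung (60 cells), a log2 ratio of 2.16 (1.92 to 2.40). In the myeloid classes it differed less: its log2 ratio was −0.19 in neutrophils, −0.37 in monocytes, −0.12 in C1q macrophages and −0.52 in Mgl2 Cd209a antigen-presenting cells. Cstb was lower in muscle in 5 of the 6 classes, with log2 ratios of −1.33 in neutrophils, −1.19 in monocytes, −0.85 in C1q macrophages, −0.78 in endothelial cells and −0.55 in fibroblasts. In Mgl2 Cd209a antigen-presenting cells it was 0.39, with an interval from −0.07 to 0.87. Serpinb6a was higher in muscle fibroblasts (296 CPM, against 144 CPM in lung; log2 1.04) and monocytes (44.6 CPM, against 19.6 CPM in lung; log2 1.19, 0.06 to 2.27). In endothelial cells Serpinb1a went the other way from neutrophils, at 29.4 CPM in muscle, against 67.2 CPM in lung (log2 −1.19, −1.80 to −0.54), and the log2 ratio was −0.51 without the fullest cells. Serpina3g was at 0 in all 6 muscle classes. Against a floor of 3 counts per class it was at least 35.3-fold lower in muscle endothelial cells, 5.05-fold in Mgl2 Cd209a antigen-presenting cells and 3.61-fold in C1q macrophages. The exact intervals of these log2 ratios, which also carry the counting error of the lung cells, reached up to −4.57, −1.76 and −1.52 and so allow smaller differences. Lung endothelial cells had 10 Serpina3g counts (24.9 CPM), against 72.0 CPM in lung T cells and 44.4 CPM in lung B cells. They also held 154 CPM of the neutrophil gene S100a9. The part of RNA from other cells in the lung values was not tested. Against the same floor Cst7 was at least 5.55-fold lower in muscle Mgl2 Cd209a antigen-presenting cells, with an interval that reached up to a log2 of −1.93. Without the fullest cells, the endothelial and Mgl2 Cd209a differences of Serpina3g and that of Cst7 rested on fewer than 10 counts.

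By the same size rule, 1 of 4 members was higher in muscle monocytes (10.8% of all genes) and 1 lower (10.5%). In C1q macrophages 0 of 7 were higher (10.5%) and 1 lower (10.2%), and in Mgl2 Cd209a antigen-presenting cells 1 of 6 was higher (8.90%; Serpinb6a, on 8 against 2 counts) and 2 lower (18.6%). In endothelial cells 1 of 5 was higher (12.7%) and 2 lower (15.6%), and in fibroblasts 2 of 4 were higher (19.5%) and 0 lower (14.7%). With so few members tested per class, these counts say little beyond the single genes.

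The targets were set beside the inhibitors. Of 11 listed cysteine cathepsins and legumain, all had at least 50 counts, and Ctss, Ctsb, Ctsl, Ctsc and Ctsz reached the highest levels. Ctss, the cathepsin of antigen-presenting cells, peaked at 2717 CPM in lung alveolar or Mmp12 macrophages, Ctsb at 2426 CPM in muscle C1q macrophages and Ctsl at 987 CPM in muscle fibroblasts. Ctsc, which activates granule serine proteases, and Ctsz peaked in lung C1q macrophages at 942 and 918 CPM. The summed UMIs of the 7 cystatin and stefin members were divided by those of 7 proteases (Ctsb, Ctsl, Ctss, Ctsh, Ctsz, Ctsc and Lgmn), a ratio between genes with no correction for length that is read only across classes. It was 25.4 in lung cDC1 and 5.34 in migratory dendritic cells. In C1q macrophages it was 0.365 in muscle and 0.445 in lung, where proteases summed to 7709 CPM in muscle, against 7695 CPM in lung. Muscle fibroblasts stood at 2.78 and lung fibroblasts at 0.466, and muscle endothelial cells at 1.73 and lung endothelial cells at 0.376. Cst3 made up most of the inhibitor sum in these classes.

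**Figure D5:**
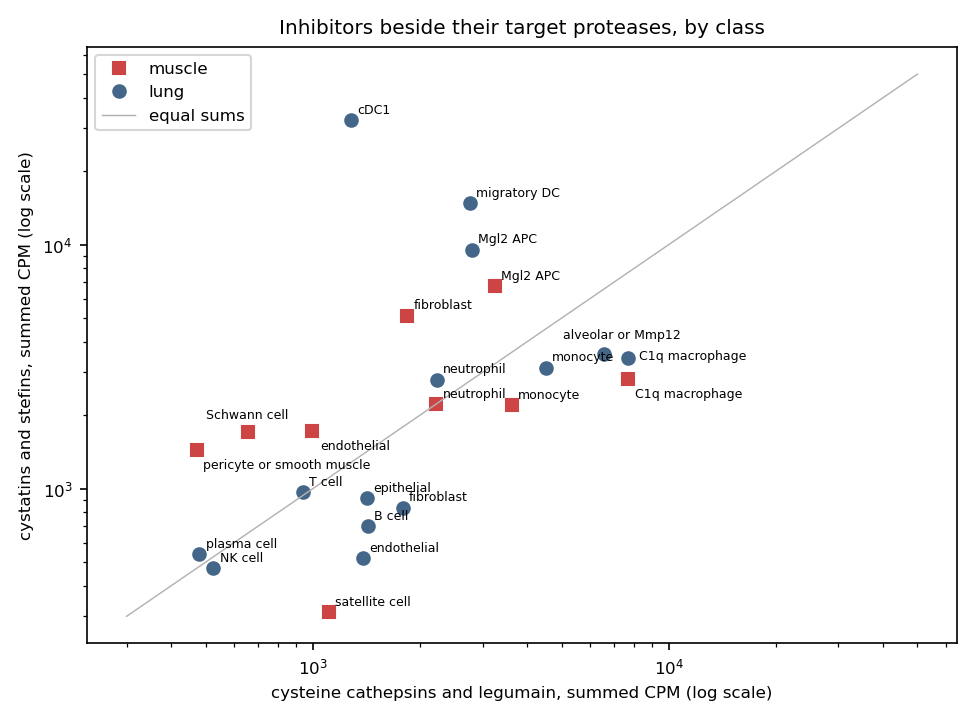
Summed CPM of the 7 cystatin and stefin members (vertical, log scale) against summed CPM of 7 cysteine proteases, cathepsins and legumain (horizontal, log scale), 1 point per class of at least 20 cells, squares for muscle and circles for lung; no error is drawn and the line marks equal sums. Lung cDC1 lies far above the line at 25.4, and the macrophage classes below it.

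In neutrophils the ratio was 0.999 in muscle and 1.25 in lung, and 1.25 in muscle and 1.65 in lung with Cstdc4 and Cstdc5 added. Among lung subsets it was 1.27 in Siglecf-positive, 1.25 in Ccl3-high, 0.986 in Cxcl2-high Ccl3-low and 1.03 in cells low for all 4, against 2.24 in Retnlg-high cells, where proteases summed to 1410 CPM against 2187 to 2628 CPM in the 4 subsets. Macrophage markers differed as well: the 6 C1q macrophage markers, all detected, summed to 712, 331, 731 and 721 CPM in the 4 subsets, against 299.5 CPM in Retnlg-high cells. The 7 alveolar or Mmp12 macrophage markers summed to 778, 354, 442 and 864 CPM in the 4 subsets, against 267 CPM in Retnlg-high cells, with Krt79 at 0 in Ccl3-high and Cxcl2-high Ccl3-low cells. This second sum, which includes Fabp4, was 2716 CPM in lung endothelial cells. The part of these markers in the protease levels was not tested. With Cstdc4 and Cstdc5, neighbouring stefin-like genes, added to the inhibitor sum, the ratio was 1.49, 1.76, 1.25 and 1.11 in the 4 subsets and 3.81 in Retnlg-high cells, an alternative chosen after seeing the data. Of the listed cysteine proteases, 5 of 10 were at least 2-fold higher in Siglecf-positive cells than in Retnlg-high cells (33.8% of all genes), 2 of 10 in Ccl3-high (19.2%), 5 of 10 in Cxcl2-high Ccl3-low (21.5%) and 6 of 9 in cells low for all 4 (38.2%), and 0 were lower in any of the 4 (3.40%, 4.37%, 2.82% and 3.94% of all genes). Ctss was at 631 CPM in Siglecf-positive cells and 763 CPM in cells low for all 4, against 280 CPM in Retnlg-high cells. Between tissues, 0 of 10 were higher (10.0% of all genes) and 3 lower (15.2%) in muscle neutrophils. Ctsl, the subject of the series, was at 149 CPM in muscle, against 328 CPM in lung neutrophils (log2 −1.14, −1.56 to −0.74), and Ctsb at 484 CPM in muscle, against 501 CPM in lung. Of 5 listed granule genes, among them the Serpinb1a targets elastase, proteinase 3 and cathepsin G, only Prtn3 (proteinase 3) had 50 counts or more. It was at 25.8 CPM in muscle neutrophils (9 counts) and 22.5 CPM in lung neutrophils, and highest in lung monocytes at 46.0 CPM. Of 5 granzymes, Gzma and Gzmb were highest in lung NK cells, at 7184 and 514 CPM, followed by Gzmc and Gzmk in T cells at 31.9 and 19.0 CPM and Gzmm in NK cells at 5.78 CPM.

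Related inhibitors outside the 10 genes were read in the same cells. Of 17 other cystatins and stefins listed, 11 were found by name and 3 had at least 50 counts. Cstdc4 was at 535 CPM in muscle neutrophils and 833 CPM in lung neutrophils, and Cstdc5 at 14.3 CPM in muscle, against 47.9 CPM in lung neutrophils. In lung subsets Cstdc4 was at 540, 1104, 603 and 214 CPM, against 1908 CPM in Retnlg-high cells, and Cstdc5 at 0.817, 10.5, 5.47 and 5.45 CPM, against 312 CPM. The third, Fetub, reached 25.8 CPM in muscle fibroblasts. Csta2, a gene of the stefin cluster, was not on this list and not in the inhibitor sums above. It had 542 UMIs (63.3 CPM) in lung neutrophils, of 1047 in all kept lung cells. In muscle neutrophils it had 2 UMIs, of 8 in all kept muscle cells. Of 6 other leukocyte inhibitors, Slpi, the secretory leukocyte protease inhibitor, was highest in 21 lung plasma cells at 25380 CPM and was at 1036 CPM in muscle, against 1114 CPM in lung neutrophils. Wfdc17 was at 3779 CPM in muscle, against 2257 CPM in lung neutrophils, and Wfdc21 at 1346 CPM in muscle, against 527 CPM in lung neutrophils (log2 1.35). Both were at least 2-fold lower in each of the 4 lung subsets than in Retnlg-high cells. Spint2 and Spint1 peaked at 628 CPM in lung epithelial cells and 151 CPM in lung Mgl2 Cd209a antigen-presenting cells.

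Of 34 other serpins listed, 18 had at least 50 counts, and the 4 described here were highest in fibroblasts. Serping1, the C1 inhibitor, was at 2613 CPM in muscle, against 682 CPM in lung fibroblasts, and Serpinf1 at 1339 CPM in muscle, against 578 CPM in lung. Serpine2 was at 399 CPM in muscle, against 1142 CPM in lung, and Serpinh1, a collagen chaperone, at 454 CPM in muscle, against 1097 CPM in lung fibroblasts. Serping1 and Serpinf1 were thus higher and Serpine2 and Serpinh1 lower in muscle fibroblasts, each by at least 2-fold.

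The genes most like each member were sought over 17 profiles of classes with at least 50 cells, by Pearson correlation of log2(CPM + 10) among 11487 genes. The profiles of a tissue share a library, and these values are descriptions. Stfa2l1 was closest to Asprv1 (0.98), Mirt2 (0.97) and Olfm4 (0.97), Stfa1 to Mirt2 (0.97), Ceacam10 (0.97) and Stfa2l1 (0.95), and Stfa2 to Cstdc5 (0.99), Il1bos (0.98) and Amer2 (0.98). Cst7 was closest to Cd96, Xcl1 and Cd27 (0.99 each) and Serpina3g to P2ry10 (0.96), Nup210 (0.95) and Slc14a1 (0.93). Cstb was closest to Ltc4s (0.90), Mvd (0.90) and Atp6v1b2 (0.88), and Serpinb6a to Tmem41a (0.93), Plat (0.85) and Pank3 (0.84). For Cst3 the highest values were lower, with Kcp (0.84), Rtn1 (0.83) and Slc33a1 (0.83), and Serpinb1a followed no gene closely (Zbtb39 0.70, Rab4b 0.68, Tbc1d20 0.67). Stfa3 had too few counts to be included. The highest values thus belonged to the genes read in few classes.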

How the data were processed

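Per the file headers, the deposited matrices hold counts, whole numbers of UMIs per gene and barcode, 1 matrix per tissue. Per the submitters' processing notes they were made with Cell Ranger 7.0.1 on GRCm39. From these counts, barcodes with at least 200 genes and at most 10% mitochondrial UMIs were kept. A cell was placed in the class for which it had most distinct marker genes, if at least 2 and at least 1 more than any other class. This scoring rule was chosen after depth was seen and used no inhibitor gene. Neutrophil subsets were assigned in the order Siglecf, Retnlg, Ccl3, Cxcl2. UMIs were summed per class and divided by all UMIs of the class, and classes under 20 cells were left out. Poisson, Clopper-Pearson and conditional binomial intervals (95%) were exact. Genes differing at least 2-fold on at least 10 counts were counted; p-values were not computed. All 10 inhibitors were named, and of each list the 5 genes with the highest CPM in any class among those with at least 50 counts. A gene that this rule names is not reported here. The inhibitors, the gene lists and the markers were chosen with earlier results of these data known. Alternative filters, scalings and gates were tried. The ratio code was tested on simulated data. Python 3.11.15, numpy 2.4.6, scipy 1.17.1, pandas 2.3.3 and scikit-learn 1.9.0 were used. Sequences came from RefSeq and GENCODE on GRCm38, whose coordinates differ from those of the GRCm39 counts. Protein sequences were not used here.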

Additional observations from a re-analysis of the deposited data

Results flagged for a closer look

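Serpinb1a differed between the tissues in opposite directions in 2 classes. Its log2 ratio of muscle over lung was 2.91 in neutrophils and -1.19 in endothelial cells. The difference between these ratios was not tested, since each tissue had 1 library, and the endothelial ratio was -0.51 without the fullest cell of each group.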

How the results depend on the processing

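No paired analysis was possible because each tissue had 1 library, and for the same reason no replicate could be left out. Counts of members that differed at least 2-fold, which are small, differed by more than 1.5 times in these cases. Without the fullest cell of each group, muscle over lung gave 1 higher (against 2) and 2 lower (against 1) in neutrophils, 2 lower (against 1) in C1q macrophages, 0 higher (against 1) and 0 lower (against 2) in Mgl2 Cd209a antigen-presenting cells and 0 lower (against 2) in endothelial cells, and Siglecf-positive over Retnlg-high cells gave 1 higher (against 2). With simulated doublets removed (40 muscle and 537 lung cells) it was 2 lower (against 1) in neutrophils, 1 higher (against 0) in C1q macrophages, 1 lower (against 2) in endothelial cells and 2 higher (against 1) in cells low for all 4. With 1 more gate marker it was 0 lower (against 1) in monocytes, 1 higher (against 0) in C1q macrophages, 1 lower (against 2) in endothelial cells and 0 higher (against 1) in Ccl3-high cells. With the mitochondrial limit at 5% it was 1 higher (against 0) in C1q macrophages, 0 higher (against 1) in Mgl2 Cd209a antigen-presenting cells and 1 lower (against 2) in endothelial cells, and at 20% 1 higher (against 2) in fibroblasts. Median-ratio scaling gave 1 lower (against 2) in endothelial cells, 1 higher (against 2) in Siglecf-positive cells and 0 higher (against 1) in Ccl3-high cells. With no count minimum it was 4 lower (against 2) in endothelial cells, 1 lower (against 0) in fibroblasts and 2 higher (against 1) in cells low for all 4. The cause was not tested. With Cstdc4 and Cstdc5 added, the ratio of inhibitors to cysteine proteases was 1.25 in muscle and 1.65 in lung neutrophils, 2.59 in muscle Retnlg-high cells, and in lung 1.49 in Siglecf-positive, 1.76 in Ccl3-high, 1.25 in Cxcl2-high Ccl3-low, 1.11 in cells low for all 4 and 3.81 in Retnlg-high cells. Leaving out the fullest cell and adding these 2 genes were chosen after seeing the data. Some log2 ratios called at 2-fold came under it in at least 1 setting. For muscle over lung these were Serpinb6a in fibroblasts (0.99 with the mitochondrial limit at 20%) and Cstb in monocytes (-0.89 with 1 more gate marker). Stfa3 in neutrophils (0.86), Serpinb1a in endothelial cells (-0.51) and Serpinb6a in Retnlg-high cells (-0.67) did so too. Over Retnlg-high lung cells they were Serpinb1a (-0.915) and Cst7 (0.63) in Siglecf-positive cells and Cstb in Ccl3-high cells (0.73). No ratio of at least 2-fold changed its sign. Of the ratios, median-ratio scaling moved 15 of 68 and the fullest cell 11 of 67 beyond their intervals. Totals without mitochondrial, ribosomal and Rn18s counts moved 77 of 300 levels. The log2 ratio of Serpinb1a in muscle over lung neutrophils ran from 2.62 to 3.18 over 10 settings and that of Cstb from -1.41 to -1.26. That of Stfa3 ran from 0.86 to 2.64. Classes that fell under 20 cells under a setting gave no value there. With 70 muscle neutrophils, 0 counts allow a level of up to 8.59 CPM.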

Other observations

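Lung T cells were divided by their Cd8 and Cd4 UMIs after the values of Cst7 were seen. Cst7 was at 284 CPM in 193 CD8 cells (43.0% with a UMI), 47.7 CPM in 208 CD4 cells (14.4%) and 40.5 CPM in 353 cells with neither (9.63%). Serpina3g was at 106 CPM in CD8 cells and 60.5 CPM in CD4 cells. Median depth was 3885 UMIs in CD8 cells and 3240 UMIs in CD4 cells, and its part in these differences was not tested.

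Muscle barcodes left out for more than 10% mitochondrial UMIs numbered 2222 among those with at least 200 genes, and 16 of them scored as neutrophils. These 16 held 10 counts of Stfa1, 4 of Stfa2, 6 of Stfa2l1 and 0 of Serpinb1a, where a floor of 3 counts allows up to 112 CPM of Serpinb1a.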
